A study of Triticum aestivum with 54 samples.

Results

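AT2 is a synthetic tetraploid wheat that carries the S genome of Aegilops longissima and the A genome of Triticum urartu, and the comparison described here sets its selfed generation S8 against an RNA mixture of both parents at 1:1, called Mix, in young inflorescence. AT2 was made by crossing Ae. longissima (TL05, genome SlSl, female) with T. urartu (TMU06, genome AA), doubling the chromosomes of the hybrid with colchicine, and selfing. Its members are 6 of the 54 arrays of the series, 3 of S8 and 3 of Mix, chosen by their title codes, because the genotype field of the labels reads AT2 for all 54 arrays. Young inflorescence was taken at the booting stage, from plants grown without special treatment at 24 °C by day and 18 °C by night, and each S8 array carried RNA pooled from several plants. Mix is not a plant but an in vitro hybrid, and whether its 3 mixtures were made from separate pools is not given in the sources used here. The 3 arrays of each diploid parent, of generations S5, S6 and S7, and of the wild tetraploid ssp. dicoccoides (TD) and the domesticated tetraploid ssp. durum (TTR13), which carry genomes B and A and not Sl, are used beside it in the same tissue. Other RNA of the series came from the second leaf of seedlings.

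When 2 diploid genomes come together in an allopolyploid, each gene is usually present as homeologs, the copies from either parent. If both copies keep the activity they had in the parents, total expression in the tetraploid should lie near the mean of the parents, which is called additive expression, and a parental RNA mixture is a measured stand-in for that mean. Nonadditive genes depart from it: they may lie above or below both parents (transgressive expression, over-TRE or under-TRE) or at the level of 1 parent although the parents differ (expression level dominance, ELD). A probe set on the array reads the sum of the transcripts that match it, so a change of 1 homeolog and a change of both cannot be told apart.

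Expression is given as log2 values of probe sets, each spoken of as a gene below, although several can read 1 gene. The 61115 probe sets were reduced to 23348 for which all 3 arrays of at least 1 of 7 groups (parents, Mix, S5 to S8) exceeded the 65th percentile of their own array. Array medians over all probe sets were 4.74 to 4.78 in S8 and Mix. Across these genes, the arrays correlated at 0.982 to 0.993 within S8, at 0.987 to 0.993 within Mix, and at 0.937 to 0.966 between S8 and Mix. The extraction text of the labels names leaf as the source of all RNA, so the tissue was checked. The median of 8 probe sets of nuclear photosynthesis genes was 6.88 in S8 young inflorescence against 13.07 in S8 leaf, and that of 18 probe sets of histones H2A and H2B was 10.2 against 4.40. The 4 probe sets of raftin, an anther tapetum protein, read 2.61 to 5.29 in S8 and 2.45 to 4.96 in Mix. On all arrays of the group, 3 of them lay under the array median in S8 and 2 in Mix, and 22 of 31 probe sets of seed storage proteins and inhibitors lay under the array median in all arrays of S8, and the same number in Mix. Photosynthesis markers differed little between S8 and Mix (median 6.76 in Mix), as did histones (10.3 in Mix). In pooled tissue, a lower level per cell and fewer cells that express a gene cannot be told apart.

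The first question was how many genes of S8 depart from the parental mixture. Of 23348 genes tested, 4656 (19.9%) differed from Mix by limma at a Benjamini-Yekutieli adjusted p under 0.05. Of these, 2798 were higher in S8 (12% of genes tested) and 1858 were lower (7.96%), so that 60.1% of the nonadditive genes rose. This split moved with the scaling, and 46.8% rose once all arrays had the same median over the tested genes. The S8 medians over the tested genes were 7.23 to 7.29 and the Mix medians 7.19 to 7.20. The falls reached further than the rises. There were 415 called rises and 494 called falls of at least 2-fold, 15 and 152 of at least 4-fold, 5 and 72 of at least 8-fold, and 1 and 28 of at least 16-fold. The p-values measure the spread between pools and mixtures, which for Mix may be technical only. The 6 arrays alone, without the other genotypes to estimate the spread, gave 1635 calls.

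The genes named below are those that the array annotation pairs with a gene name. It did so for 200 probe sets, of which 96 passed the filter, and 14 of these 96 (14.6%, beside 19.9% of all genes) differed from Mix, 5 higher and 9 lower. In all 14, which were called on these same arrays, the S8 and Mix arrays did not overlap. Over the whole 96 this held for 35, beside 45.6% of all genes tested. The median difference over the 96 was -0.00049 on the log2 scale, beside 0.02 over all genes tested.

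Protein turnover, sugar metabolism and translation gave 1 rise each. UBC1, a ubiquitin-conjugating enzyme that marks proteins for breakdown, read 6.56, 6.95 and 6.34 in S8 and 5.67, 6.09 and 5.80 in Mix by TaAffx.51048.1.S1_at. Every S8 array lay above every Mix array and above all arrays of both parents, and the rise was 0.76 ± 0.14 (log2, SE, limma adjusted p = 0.0014), which is 1.70-fold. S8 was also called above Ae. longissima (0.77), as 45.9% of all genes differed there, and above T. urartu (0.87), as 36.7% did, so UBC1 was over-TRE. The other 2 UBC1 probe sets that were tested were not called, at 0.06 and 0.18. PMM, phosphomannomutase, which makes the mannose phosphate used for ascorbate and cell wall sugars, read 7.51, 7.61 and 7.31 in S8 and 6.79, 6.78 and 6.89 in Mix. Its rise of 0.66 ± 0.12 (adjusted p = 0.0019) brought S8 to the level of Ae. longissima (7.10, 7.30 and 7.40) and above T. urartu (6.91, 6.53 and 6.56), which is ELD. NCBP, a cap-binding protein of the family of eIF4E that binds the 5′ end of messenger RNA, read 11.15, 11.35 and 11.09 in S8 and 10.68, 10.71 and 10.78 in Mix. S8 exceeded both parents here as well, by 1.11 over Ae. longissima and 0.57 over T. urartu, and its rise over Mix was 0.48 ± 0.09 (adjusted p = 0.0031). Of the 7 translation probe sets tested NCBP was the only one called (14.3%, beside 19.9% of all genes), and the others ranged from -0.03 to 0.21.

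Among the chromatin and cytoskeleton genes, alpha tubulin rose and the H2B probe sets went both ways. TUBA, whose product forms microtubules with beta tubulin, read 13.74, 13.91 and 13.69 in S8 and 13.46, 13.48 and 13.47 in Mix by Ta.812.1.S1_x_at, a rise of 0.31 ± 0.06 (adjusted p = 0.0026). The call was lost under 2 of 17 alternatives (adjusted p 4.6e-05 to 0.41), and the name has the suffix of probes shared with related transcripts. The other 8 tubulin probe sets were not called and ranged from -0.05 to 0.17. Histone H2B, a core protein of the nucleosome, is read by several probe sets named wcH2B-8. Ta.7378.1.S1_x_at read 12.95, 12.91 and 12.71 in S8 and 12.42, 12.59 and 12.55 in Mix. Its rise of 0.34 ± 0.09 was just past the threshold (adjusted p = 0.042) and lost the call under 10 of 17 alternatives, where adjusted p ranged from 0.00034 to 0.45. Ta.7378.35.S1_x_at went the other way, with 10.98, 10.74 and 10.66 in S8 and 11.71, 11.46 and 11.56 in Mix, a difference of -0.78 ± 0.14 on the log2 scale (adjusted p = 0.0010).

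The H2B probe set Ta.7378.35.S1_x_at also shows how the control matters. Its parents were far apart, at 12.53, 12.36 and 12.03 in Ae. longissima and 5.40, 5.78 and 5.12 in T. urartu. Mix lay 2.71 above the mean of the parents' log2 values (adjusted p = 1.6e-13). A 1:1 mixture averages amounts and not their logarithms, and against that log2 mean S8 was 1.92 higher instead of lower. The third, Ta.7378.17.S1_x_at, read 3.94, 3.44 and 3.61 in S8 and 5.96, 5.06 and 4.56 in Mix. All 3 S8 arrays lay under their array medians, as did T. urartu (3.35, 2.89 and 3.29), while Ae. longissima read 6.08, 6.32 and 6.11. Among S8, Mix and both parents, only Ae. longissima exceeded the 65th percentile of the filter on all its arrays. The difference was -1.53 ± 0.25 on the log2 scale (adjusted p = 0.00044), and S8 was not called different from T. urartu (0.49, adjusted p = 1). The suffix of these 3 names marks probes shared with related transcripts, so the level of a single H2B gene is not resolved. Over all 16 histone probe sets tested, 1 rose, 2 fell and 13 were not called, which is 18.8% called beside 19.9% of all genes, with a median difference of 0.13.

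Falls were also found among genes of methyl transfer, transport and starch breakdown. PEAMT1, the phosphoethanolamine methyltransferase of choline synthesis, read 8.19, 8.38 and 7.96 in S8 and 8.78, 8.87 and 8.60 in Mix, a difference of -0.57 ± 0.11 on the log2 scale (adjusted p = 0.0030). S8 lay below both parents, with differences of -1.06 from Ae. longissima and -0.43 from T. urartu (adjusted p = 0.024), and was under-TRE. COMT1, an O-methyltransferase of lignin synthesis, read 8.79, 8.68 and 8.50 in S8 and 8.91, 9.31 and 9.31 in Mix. Its highest S8 array was close to the lowest Mix array, and the difference of -0.52 ± 0.13 (adjusted p = 0.029) was lost under 8 of 17 alternatives, where adjusted p ranged from 0.0028 to 0.28. The other 4 of the 6 genes listed under methyl cycle and purines were not called (33.3% called, beside 19.9% of all genes), and the list had a median of -0.26. In the list of ion and metal transport and chelation 2 of 8 (25%) were called, and in that of starch, sucrose and fructan 1 of 5 (20%). Every call in these lists was a fall, where 7.96% of all genes were called lower. TPC1, a vacuolar cation channel, read 5.94, 6.0 and 5.70 in S8 and 6.25, 6.71 and 6.67 in Mix, a difference of -0.66 ± 0.12 (adjusted p = 0.0020).

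DMAS1, the enzyme that completes deoxymugineic acid, with which grasses take up iron, read 4.61, 4.74 and 4.40 in S8 and 4.95, 5.62 and 5.75 in Mix by Ta.5335.3.S1_a_at. S8 was under the array median, and every S8 array lay below all arrays of T. urartu (4.95, 4.81 and 4.85), while Ae. longissima read 6.20, 6.18 and 6.22. The difference was -0.86 ± 0.14 (log2, adjusted p = 0.00065). The other 2 DMAS1 probe sets tested were not called, at -0.02 and 0.18. BMY1, a beta-amylase that frees maltose from starch, read 4.53, 4.67 and 4.57 in S8 and 5.32, 5.70 and 5.46 in Mix, and the difference of -0.90 ± 0.16 (adjusted p = 0.0017) was called under all 17 alternatives. Here S8 was under the median, and every S8 array lay below all arrays of Ae. longissima (4.90, 5.09 and 5.04) and of T. urartu (5.87, 6.62 and 6.18). The 65th percentile used as filter was 5.66 to 5.75 over the arrays of the tissue. For BMY1 and Ta.5335.3.S1_a_at neither S8 nor Mix exceeded it on all arrays. T. urartu did for BMY1, and Ae. longissima did for Ta.5335.3.S1_a_at, so both calls compare low levels. WMAI-1, an alpha-amylase inhibitor of the grain, read 5.58, 5.58 and 5.60 in S8 and 5.97, 5.87 and 6.18 in Mix. The difference of -0.41 ± 0.10 (adjusted p = 0.033) was small and lost under 8 of 17 alternatives (adjusted p 0.00011 to 0.30).

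The plastid gene rbcL, which encodes the large subunit of Rubisco, was lower by 1 of its 6 tested probe sets. TaAffx.128414.181.S1_at read 6.20, 6.48 and 6.22 in S8 and 7.67, 6.66 and 7.0 in Mix, and the difference was -0.81 ± 0.17 (adjusted p = 0.0072). The S8 arrays were close to Ae. longissima, the female parent (6.45, 6.04 and 5.85), and below T. urartu (7.05, 7.09 and 6.88). Mix replicate 1 stood above the other Mix arrays, and without it the difference was -0.53 (adjusted p = 0.071). The call was lost under 5 of 18 alternatives, where the difference ranged from -1.03 to -0.26 and adjusted p from 0.00041 to 1. The other 5 rbcL probe sets were not called, with differences from -0.54 to 0.09.

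**Figure D1:**
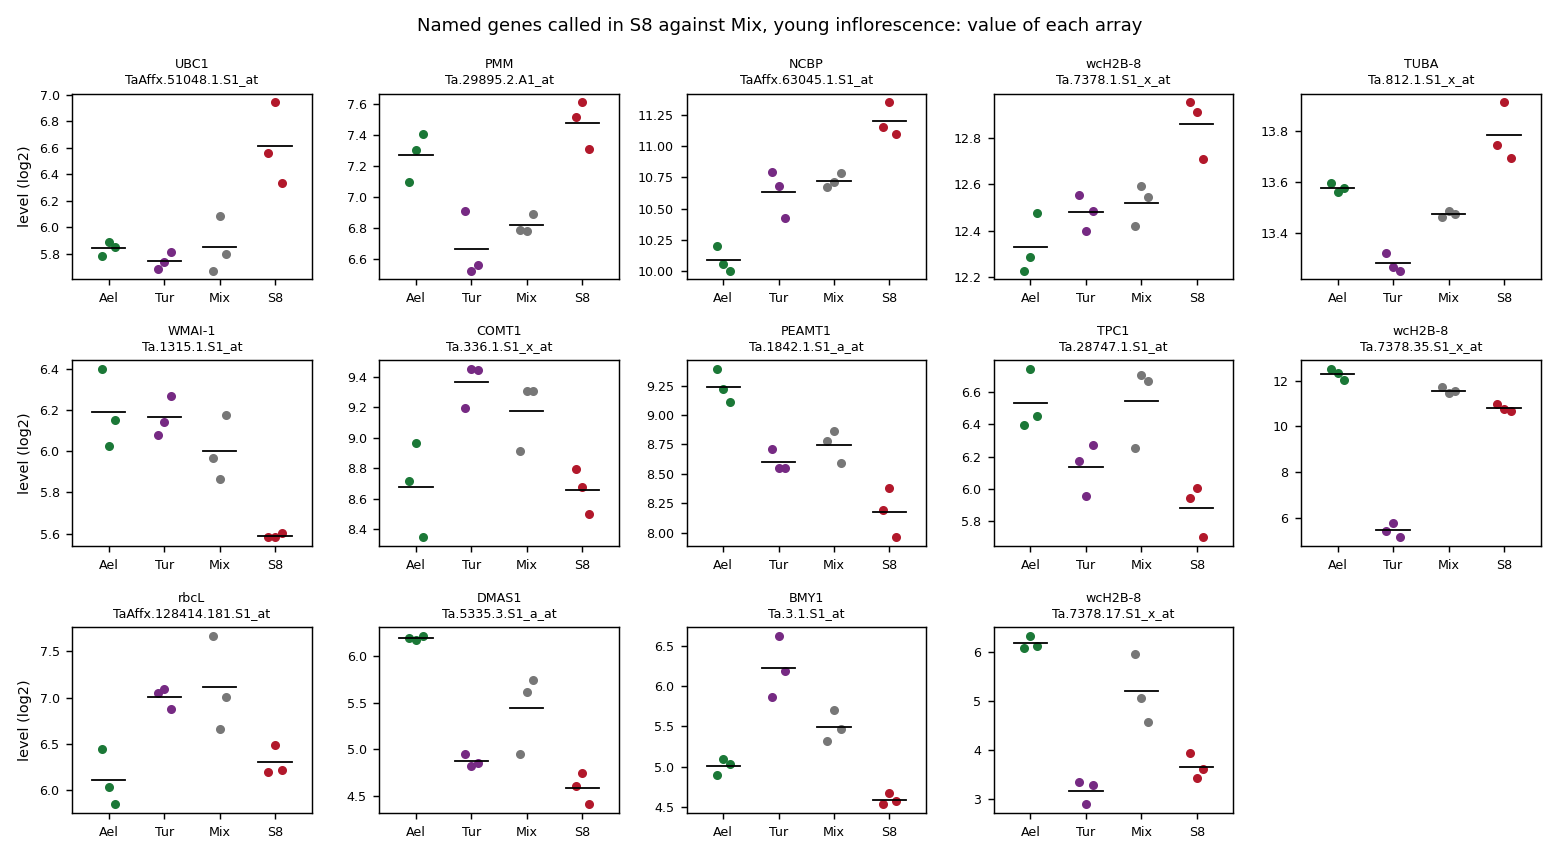
Log2 level on each young inflorescence array (points) and mean of 3 arrays (lines) of the 14 named genes that differed between S8 and Mix, with Ael for Ae. longissima and Tur for T. urartu. The vertical axes differ between panels and do not start at 0. S8 lies above Mix in the first 5 panels and below it in the other 9, with no overlap of arrays in any panel.

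Several lists of genes held no call in S8. None of the 6 tested nuclear photosynthesis probe sets (PRK, PsbO, 2 of PsbP, petC, FBP) differed from Mix, with a median of 0.07 and a range from -0.12 to 0.20. With 19.9% of all genes called, a list of this size says little by having no call. By limma there was also none at an unadjusted p under 0.05, beside 10619 of the 23348 genes tested. The redox list (lgul, Prx1, Trx-M) had 0 of 4 calls, again beside 19.9% of all genes, with differences from -0.27 to 0.17. Genes of cold, drought and heat (0 of 3), defence (0 of 1), gibberellin synthesis (0 of 1) and the cell wall (0 of 1) were too few to describe as groups, since no more than 3 of 12, 1 of 11 and 1 of 4 probe sets of the first 3 lists passed the filter.

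The largest changes were in genes for which the annotation gives no gene. Ta.7378.3.S1_at read 5.01, 4.66 and 4.83 in S8 against 12.62, 12.92 and 12.71 in Mix, a difference of -7.91 ± 0.16 on the log2 scale (adjusted p = 5.6e-20). Its probe set name carries the number 7378 of the wcH2B-8 probe sets, but the annotation pairs it with no gene. Ae. longissima read 13.45, 13.38 and 13.44 and T. urartu 3.68, 3.79 and 3.76, so that S8 lay far below the parent that expressed it and 1.09 above the other (adjusted p = 3.5e-05). Ta.6835.1.S1_at read 4.39, 4.40 and 4.24 in S8 against 11.00, 10.89 and 10.84 in Mix, a difference of -6.57 ± 0.15 (adjusted p = 7.6e-19). S8 was under the array median and was not called different from T. urartu (4.42, 4.87 and 4.29), while Ae. longissima read 11.94, 12.04 and 11.99.

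The largest rises started from Mix levels under the array median, so their size rests on values near background. Ta.23477.1.S1_a_at read 8.17, 8.22 and 8.35 in S8 and 2.91, 4.05 and 4.42 in Mix, a rise of 4.45 ± 0.24 (adjusted p = 9.2e-12). Both parents were low as well, at 3.43, 3.53 and 3.87 in Ae. longissima and 3.69, 4.34 and 4.36 in T. urartu, whereas TD read 7.94, 7.57 and 7.71 and TTR13 7.37, 7.08 and 7.42. Ta.2963.1.S1_at read 6.53, 6.78 and 6.47 in S8 and 3.25, 3.30 and 3.06 in Mix, a rise of 3.39 ± 0.14 (adjusted p = 5.6e-14). TTR13 was high (7.93, 7.66 and 7.76) and TD low (2.32, 2.50 and 2.08).

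The position of S8 relative to its parents was then classed for each of the 4656 genes. Over-TRE was found for 1018 genes, of which 625 were PEC genes (parental expression-conserved, not called between the parents) and 393 PED genes (parental expression-differential, 52.5% of all genes, 32% higher in T. urartu and 20.4% higher in Ae. longissima). Under-TRE was found for 308 genes, 216 of them PEC. ELD was found for 996 genes at the T. urartu level and 816 at the Ae. longissima level, and 1518 genes fell in no such class. A gene counted as ELD if the parents differed and S8 was called against Mix and 1 parent but not the other. The level of a parent thus means not called different from it, and equality was not tested. A mixture of both parents should lie between them, so over-TRE nearly implies a level above Mix, and all but 1 of these genes lay there. ELD at the Ae. longissima level was made mostly of rises (595 above Mix, 221 below), and ELD at the T. urartu level was nearly balanced (484 above, 512 below).

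Genes that were higher in Ae. longissima departed from Mix most often. Of 4769 such PED genes 33.0% were called, of 7483 PED genes higher in T. urartu 19.8%, and of 11096 PEC genes 14.4%. With the parents more than 16-fold apart the contrast was wider. Of 303 genes with that excess in Ae. longissima 61.1% were called, 97 above Mix and 88 below, and of 93 with that excess in T. urartu 17 (18.3%) were called, all 17 below. Of 1173 genes 4- to 16-fold higher in T. urartu 25.2% were called, 20 above Mix and 276 below. Of 799 with that excess in Ae. longissima 55.2% were called, 207 above and 234 below. These calls and the parental classes share 1 fit but not the same arrays. They are not independent, because Mix was made from RNA of both parents. The median S8 minus Mix difference was 0.23 for the 303 genes and -0.20 for the 93. Whether Mix held equal parts of both parents was not tested.

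**Figure D2:**
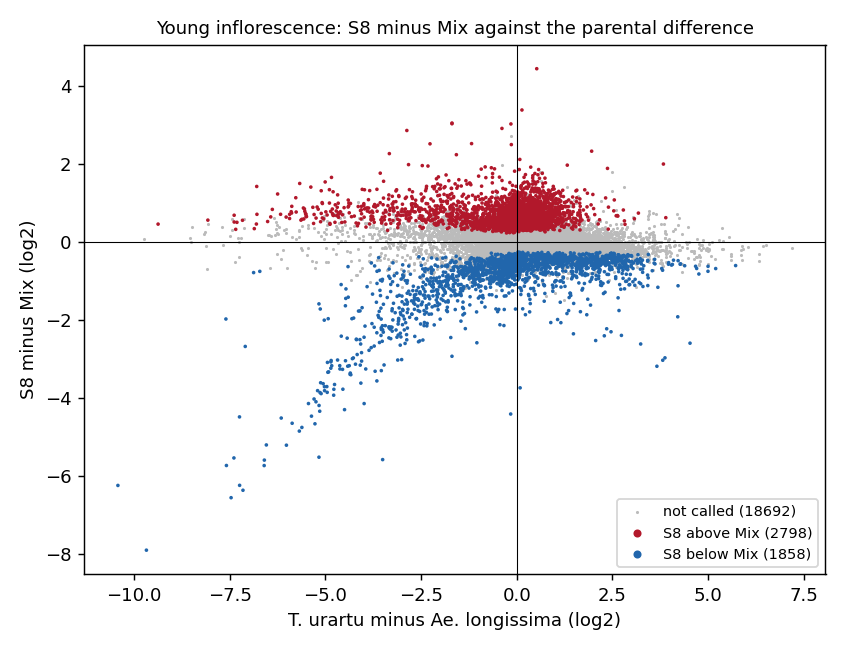
Difference between S8 and Mix (vertical, log2) against the difference between T. urartu and Ae. longissima (horizontal, log2) for the 23348 genes tested in young inflorescence, each point a probe set. Called genes are red above Mix (2798) and blue below (1858), and the deep falls form a tail on the left, where Ae. longissima was the higher parent.

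The falls of at least 4-fold, 152 in all, had a common parental pattern. Of these, 134 were PED genes higher in Ae. longissima, 12 were higher in T. urartu and 6 were PEC. S8 was at the T. urartu level (ELD) in 108 of them and under its array median on all 3 arrays in 93. The arrays of S8 and Mix did not overlap for any of the 152, where 45.6% of all genes tested had no overlap. Of the 15 rises of at least 4-fold, 14 lay above both parents, 4 had Mix under the array median, and the arrays did not overlap for 12. Both sets were chosen as called and at least 4-fold apart on these same arrays, so the lack of overlap is only a description.

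To follow this with the parental arrays alone, genes were taken that were above the 65th percentile on all 3 arrays of 1 parent and under the array median on all 3 arrays of the other. There were 536 such genes for Ae. longissima and 324 for T. urartu. In Mix nearly all were still above the array median, with 2 of 536 and 1 of 324 under it on all 3 arrays. Mix differed from the expressing parent by a median of -1.03 (log2) for the Ae. longissima set and -0.75 for the T. urartu set. Dilution by an equal amount of RNA that gave no signal would give -1. The other parent still gave signal, at a median of 3.80 beside 7.06 in the expressing parent for the Ae. longissima set. For the T. urartu set it was 4.14 beside 6.72. An even mixture would thus fall by less than 1, and whether Mix was exactly 1:1 was not tested. In S8, 158 of the 536 Ae. longissima genes (29.5%) were under the array median on all 3 arrays, beside 10 of the 324 T. urartu genes (3.09%).

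Against Mix, 191 of the 536 Ae. longissima genes fell (35.6%, beside 7.96% of all genes) and 154 rose (beside 12% of all genes). Of the 324 T. urartu genes, 28 fell (8.64%) and 15 rose. The Ae. longissima set spread widely: 19 genes differed from Mix by less than -4 (log2), 71 lay between -4 and -2, 81 between -2 and -1, 153 between -0.5 and 0.5, and 131 between 0.5 and 1. In the T. urartu set 265 of 324 lay between -0.5 and 0.5.

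**Figure D3:**
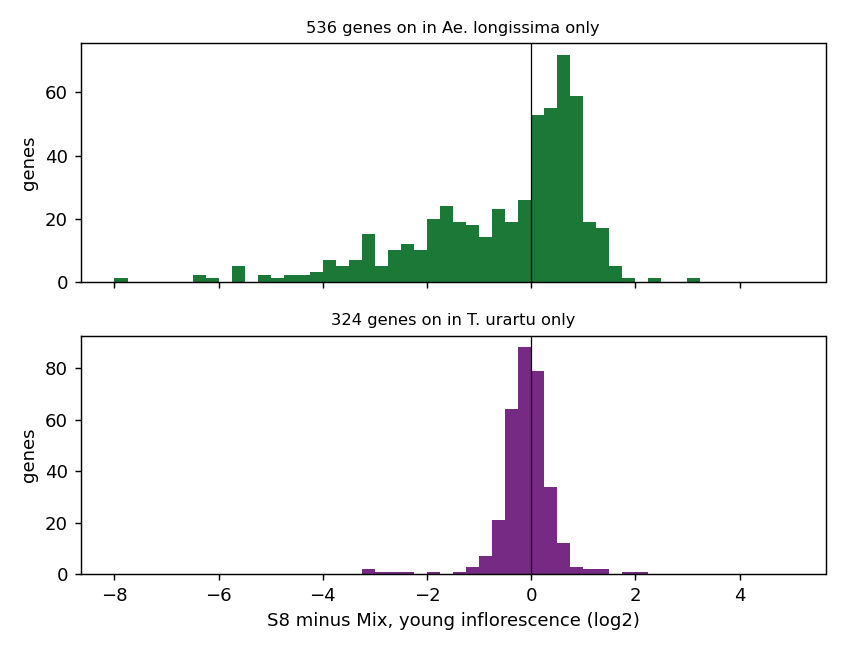
Number of genes by their S8 minus Mix difference in young inflorescence (log2, bins of 0.25), for 536 genes expressed in Ae. longissima and near background in T. urartu (top) and for 324 genes with the reverse pattern (bottom). The upper set extends to deep falls, with 71 genes between -4 and -2 and 19 below -4, beside 5 and 0 in the lower set.

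The 158 Ae. longissima genes under the S8 median were chosen on S8 values, so their levels in S8 and Mix are a description. Their median level per array was 6.66 to 6.88 in Ae. longissima, 3.60 to 3.68 in T. urartu, 5.77 to 5.85 in Mix and 3.73 to 3.81 in S8. S8 was thus about as low as T. urartu, and 155 of the 158 were called below Mix. The other generations had no part in the choice. Of the 158, 147 were under the array median in S5, 146 in S6 and 145 in S7, and 140 in all of S5, S6 and S7. For these 158, TD and TTR13 differed from S8, with 35 under the median in TD and 29 in TTR13. Their median levels were 7.99 to 8.06 in TD and 8.39 to 8.43 in TTR13, above Ae. longissima itself. How well the probes match transcripts of the Sl and B genomes was not tested. Over all 536 genes, 136 (25.4%) were under the median in TD and 144 (26.9%) in TTR13, beside 158 (29.5%) in S8. Of the 324 T. urartu genes, 71 (21.9%) were under it in TD and 54 (16.7%) in TTR13. For the other 378 genes the S8 median was 6.54 to 6.69, between Mix (6.24 to 6.32) and Ae. longissima (7.09 to 7.30), while TD (5.92 to 6.07) and TTR13 (6.14 to 6.17) lay below Mix.

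In leaf these genes were mostly silent in Ae. longissima too. Of the 158, 129 (81.6%) were under the leaf array median on all 3 Ae. longissima arrays, beside 62 of the other 378 (16.4%). Only 4 of the 158 met the same parental criterion in leaf, too few to describe as a group. All 4 were under the median in S8 leaf and called below Mix there, where 31.7% of all leaf genes were called in either direction. Of the 378, 158 met it in leaf, and 1 of these was under the median in S8 leaf. Against Mix in leaf, 8 of them were called below and 40 above. All inflorescences were labelled with the same stage, booting, and whether parents and tetraploids were at the same point within it was not tested.

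**Figure D4:**
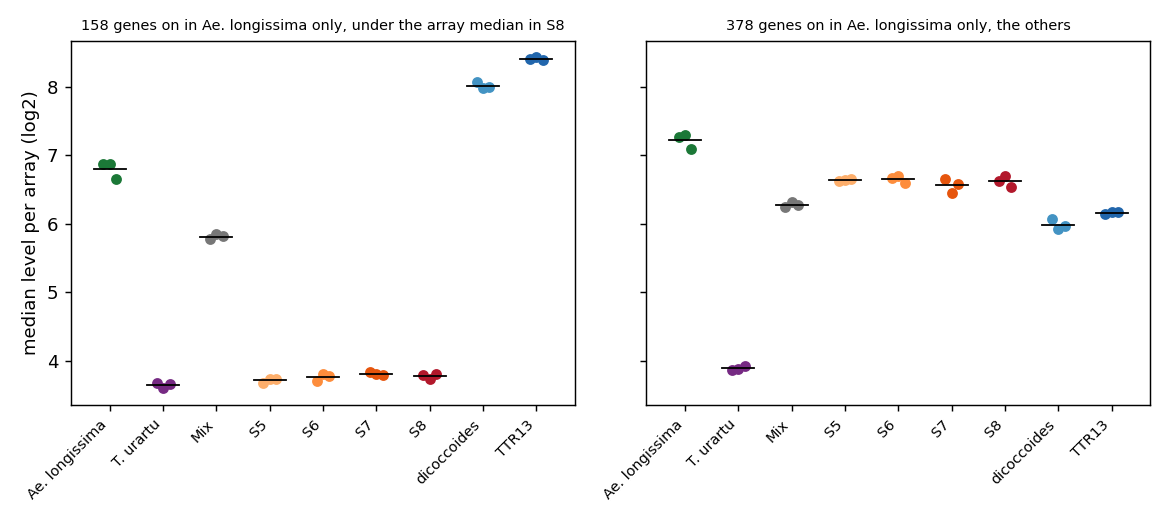
Median log2 level per young inflorescence array (points, 3 per genotype) and their mean (lines) of the 158 genes expressed in Ae. longissima and not in T. urartu that lay under the array median in S8 (left) and of the other 378 such genes (right). On the left S5 to S8 (3.68 to 3.84) lie close to T. urartu (3.60 to 3.68) and below Mix, and dicoccoides (TD) and TTR13 lie above Ae. longissima.

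A list of 153 probe sets for which the study designed pyrosequencing primers, described there as a random choice among single-copy genes to which the assay could be applied, had 148 members that passed the filter, with 22 above Mix and 9 below (20.9%, beside 19.9% of all genes). The primers are shown for 4 of its members with large differences, as the only sequences in the sources used here that tie a probe set without a gene name to a transcript. Each is written 5′ to 3′.
Ta.28166.2.S1_a_at, forward: cgttccgggttttctttgatg
Ta.28166.2.S1_a_at, reverse: tttcagacacacaaatgcctgatc
Ta.12565.3.S1_a_at, forward: tgcagctatccatcagaaattgaa
Ta.12565.3.S1_a_at, reverse: tgaatcctgccggttaatgtg
Ta.20390.1.S1_x_at, forward: ccgagtgcttcagcgacaat
Ta.20390.1.S1_x_at, reverse: tgagtccagcaagagtggatcat
Ta.8504.1.S1_at, forward: gttggcagccacaggatt
Ta.8504.1.S1_at, reverse: ccttggcacgttctctgagttc

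The 3 largest rises of this list were all over-TRE. The transcript of Ta.28166.2.S1_a_at read 7.44, 7.70 and 7.26 in S8 and 6.45, 6.76 and 6.20 in Mix, a rise of 1.00 ± 0.14 (log2, adjusted p = 0.00012). Ta.12565.3.S1_a_at read 8.59, 8.74 and 8.75 in S8 and 7.74, 7.71 and 7.77 in Mix (0.95 ± 0.12, adjusted p = 2.1e-05). Ta.13477.1.S1_at read 5.83, 6.17 and 6.0 in S8 and 5.01, 5.16 and 5.05 in Mix (0.93 ± 0.14, adjusted p = 0.00016). In each of them all S8 arrays lay above all arrays of Mix and of both parents.

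Its 3 largest falls differed in how firm they were. Ta.8504.1.S1_at read 7.04, 7.19 and 7.49 in S8 and 8.31, 7.94 and 8.24 in Mix, a difference of -0.93 ± 0.14 (adjusted p = 0.00023) to the level of T. urartu (6.61, 7.27 and 7.30). Ta.20390.1.S1_x_at read 8.58, 8.56 and 9.05 in S8 and 9.56, 9.35 and 9.56 in Mix (-0.76 ± 0.13, adjusted p = 0.00082), between its parents, and it was 0.11 above the log2 mean of the parents. Ta.30727.1.S1_at read 9.31, 9.45 and 10.72 in S8 and 10.58, 10.82 and 10.62 in Mix. Here S8 replicate 3 lay inside the range of Mix, the difference was -0.85 ± 0.21 (adjusted p = 0.037), and the call was lost under 8 of 18 alternatives, where adjusted p ranged from 2.2e-07 to 1.

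Direct contrasts, in which the Mix arrays enter only the estimate of the spread, showed where S8 differed from the earlier generations. S8 differed from S6 in 118 genes (0.505% of those tested), from S7 in 707 (3.03%) and from S5 in 1744 (7.47%). S8 was called different from each of S5, S6 and S7 in 18 genes, lower in all 18. Of these, 15 also differed from Mix, 14 below and 1 above. TaAffx.69460.1.S1_s_at, picked after its values were seen, read 6.24, 6.44 and 6.48 in S8 and 7.92, 7.72 and 7.81 in Mix, and the difference of S8 was -1.17 from S5, -1.78 from S6 and -1.96 from S7 (log2). Ta.339.3.S1_at, picked the same way, read 5.87, 6.27 and 5.95 in S8 and 7.83, 7.92 and 7.94 in Mix. None of the 15 has a gene name in the annotation.

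Photosynthesis genes set S8 apart from S5. Of the 6 tested, S8 was called below S5 in 5, with differences of -0.46 for PsbO (adjusted p = 0.0037), -0.60 for FBP (0.012), -0.58 for petC (0.033), -0.57 for 1 PsbP probe set (0.039) and -0.63 for PRK (0.049), beside 3.63% of all genes called lower. PsbO and PsbP are proteins of the oxygen-evolving complex, petC is the Rieske protein of the cytochrome complex, and PRK and FBP act in the Calvin cycle. None of the 6 differed between S8 and S6 or S7. S5 was called above Mix in all 6 (beside 16.1% of all genes), S6 in none (13%) and S7 in none (8.29%), and these comparisons share the Mix arrays. Other genes lower in S8 than in S5 were Prx1, a peroxiredoxin that removes peroxides, by 1 of its probe sets (-0.86, adjusted p = 7.7e-05), RPL9, a ribosomal protein (-0.58, adjusted p = 0.00039), and PEAMT1 (-0.79, adjusted p = 0.00016). PEAMT1 read 9.08, 8.93 and 8.90 in S5, 8.35, 8.03 and 8.34 in S6 and 7.78, 8.01 and 8.02 in S7. Over all 96 named probe sets, 11 were lower and 1 was higher in S8 than in S5, where 3.84% of all genes were higher. The 1 that was higher is an rbcL probe set (TaAffx.128896.17.S1_s_at, 1.44 higher, adjusted p = 0.00055).

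The effect in young inflorescence was compared with that in leaf, from other arrays of S8 and Mix. In leaf, 7618 of 24053 genes (31.7%) differed between S8 and Mix. Of 19818 genes tested in both tissues, 886 were called higher in both, 253 lower in both and 332 in opposite directions. Calls of the same direction made up 32.1% of the inflorescence calls and 18.1% of the leaf calls. The difference between the tissues itself was called for 6001 of 27583 genes (21.8%), by an interaction term over 54 arrays. Among the 96 named probe sets it was called for 16, in all 16 with the lower S8 minus Mix value in inflorescence (13.3% of all genes), where 3273 of the 5096 called among the genes tested in inflorescence had that sign.

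PEAMT1 differed between the tissues. It was lower than Mix in inflorescence and read 13.36, 13.34 and 13.05 in S8 leaf against 12.81, 12.74 and 12.70 in Mix leaf, and the difference between tissues was -1.07 ± 0.22 (interaction adjusted p = 0.0023). In leaf alone the difference of 0.50 did not pass the test (adjusted p = 0.38). COMT1 was similar, with 9.74, 9.97 and 10.26 in S8 leaf and 9.53, 9.54 and 9.56 in Mix leaf (interaction -0.96 ± 0.26, adjusted p = 0.034). SAHH, which breaks down the product of methyl transfer, had an interaction of -0.79 by 1 of its 2 probe sets (adjusted p = 0.0015) and was not called against Mix in inflorescence (-0.30). TPC1 read 6.33, 6.37 and 6.59 in S8 leaf and 6.32, 6.21 and 5.81 in Mix leaf (interaction -0.98 ± 0.19, adjusted p = 0.0011).

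TUBA rose in both tissues, and more in leaf. It read 11.97, 11.73 and 11.59 in S8 leaf and 10.37, 10.32 and 10.32 in Mix leaf, a rise of 1.42 ± 0.21 (adjusted p = 0.00011), and the interaction was -1.11 ± 0.22 (adjusted p = 0.0011). TEF1, a translation elongation factor, was level with Mix in inflorescence by both probe sets (-0.03 and 0.07, not called) and had interactions of -0.84 (adjusted p = 5.7e-05) and -0.60 (0.00047). For both falling H2B probe sets the leaf levels were low in S8 and Mix, between 2.80 and 4.02, and their interactions were -1.17 ± 0.28 and -1.93 ± 0.31. For Ta.7378.17.S1_x_at S8 was under the array median in inflorescence as well.

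**Figure D5:**
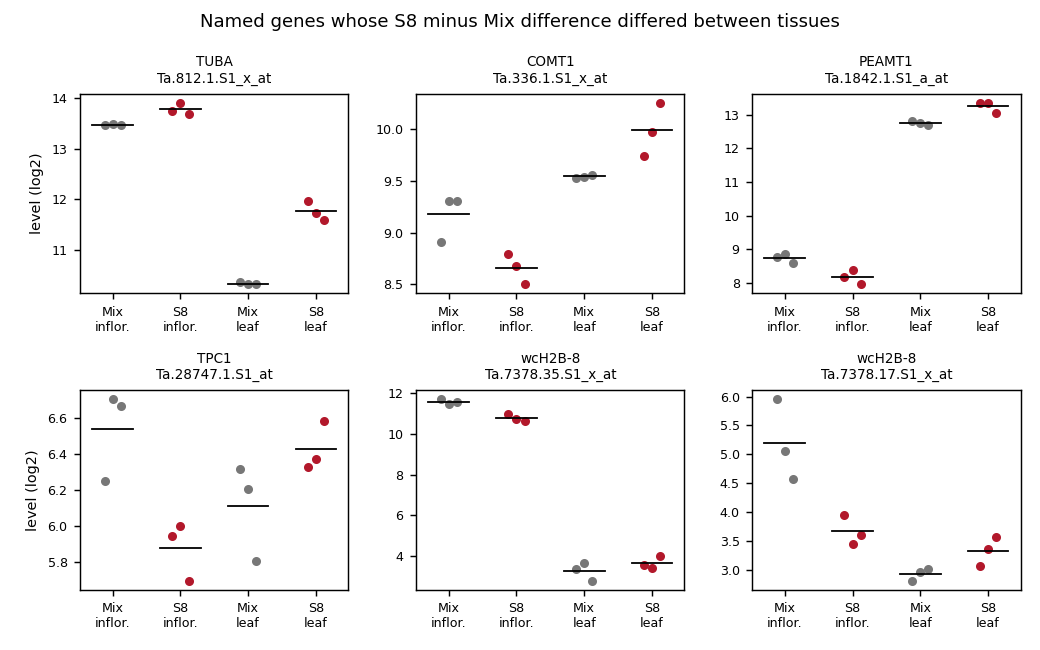
Log2 level on each array (points) and mean of 3 arrays (lines) of Mix and S8 in young inflorescence and leaf, for the 6 named genes called in inflorescence whose S8 minus Mix difference also differed between the tissues by the interaction test. The vertical axes differ between panels and do not start at 0. In PEAMT1, COMT1 and TPC1 the S8 mean is below Mix in inflorescence and above it in leaf.

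The control was checked against the parents. Mix differed from the mean of the parents' log2 values in 3187 genes (13.6%), 2625 of them higher in Mix (11.2% of all genes), and 2636 of the 3187 were PED genes, where the mean of logarithms lies below the logarithm of the mean. Of the 4656 genes called between S8 and Mix, 98.0% kept their sign with the parents averaged on the linear scale and 92.2% with the log2 mean.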

How the data were processed

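The authors hybridized RNA to the Affymetrix Wheat Genome Array and deposited log2 values made with RMA, which corrects background, equalizes the arrays' distributions and summarizes probes. The submitters' processing notes also name limma and MAS5, with no versions. The log2 values were used as deposited, all columns were matched to samples (0 were not), and no array was left out. The depth of an array is fixed, so the precision is limited by 3 arrays per group.

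All 27 arrays of young inflorescence entered 1 model with a mean for each genotype, using lmFit and eBayes of limma 3.58.1 under R 4.3.3 (data read with the data.table package, version 1.17.8). Tests were two-sided, p-values were adjusted by Benjamini-Yekutieli, and the threshold was 0.05, as in the methods of the study. In place of MAS5 present calls, not used here, a gene had to exceed the 65th percentile. Differences between tissues were tested as an interaction over 54 arrays. SE is that of the fit. Same-numbered S8 and Mix arrays did not deviate together, so replicate numbers were taken as names.

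Gene names came from the platform annotation, which pairs 1273 probe sets with a gene (1272 with a RefSeq gene ID), 200 of them with a name. Named in the text are all named genes called in S8 against Mix, the 2 largest rises and 2 largest falls without a gene and without overlap of arrays, the 3 largest of each in the primer list, and members of the gene lists. Samples, lists and genes were chosen with earlier results of these data known. The parent-specific genes were added after seeing the data.

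The fit was tested on simulated data. Alternatives were Benjamini-Hochberg adjustment, other filters (none, 50th and 75th percentile), the 6 arrays alone, computed mid-parents, a minimum of 1.5-fold, median centring, quantile normalization, probe sets without shared probes, a replicate block and leaving out each array. Figures were drawn in Python with matplotlib. Pyrosequencing results were not analysed here.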

Additional observations from a re-analysis of the deposited data

Results flagged for a closer look

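The S8 minus Mix difference was tested against that of leaf, and for 12 of the probe sets described above as called or largest in S8 against Mix it differed (limma interaction, adjusted p under 0.05). SAHH and TEF1, not called against Mix, are given in the comparison with leaf. The value, inflorescence minus leaf on the log2 scale, was -1.11 for TUBA, -0.96 for COMT1, -1.07 for PEAMT1, -0.98 for TPC1, and -1.17 and -1.93 for the wcH2B-8 probe sets Ta.7378.35.S1_x_at and Ta.7378.17.S1_x_at. Among the genes without a name it was 1.34 for Ta.2963.1.S1_at, -1.26 for Ta.6835.1.S1_at and -7.02 for Ta.7378.3.S1_at. In the primer list it was 1.01 for Ta.28166.2.S1_a_at, -1.22 for Ta.20390.1.S1_x_at and -0.84 for Ta.30727.1.S1_at.

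Among the same probe sets, the direct contrast with another generation differed for PEAMT1 (S8 minus S5, -0.79), for Ta.30727.1.S1_at (S8 minus S5, -1.46, with S8 replicate 3 more than 1 log2 unit above the other S8 arrays) and for TUBA (S8 minus S7, 0.30). Whether a single sample stands apart was not tested in groups of 3 arrays.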

How the results depend on the processing

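With Benjamini-Hochberg adjustment the genes called between S8 and Mix went from 4656 to 8563, with 57.9% higher, over-TRE to 1801, under-TRE to 847, ELD to 1665 at the T. urartu level and 1371 at the Ae. longissima level, and 2879 to no class. S8 then differed from S5 in 4379 genes, from S6 in 312 and from S7 in 2575, Mix from the log2 mid-parent in 6310, and the tissues in 10307. A minimum of 1.5-fold left 2725 genes, with 569 over-TRE, 140 under-TRE, 507 ELD at the Ae. longissima level and 831 in no class, 1135 against S5, 457 against S7, and 1716 for Mix against the mid-parent. Probe sets without shared probes gave 2911 genes (56.8% higher), 525 over-TRE, 645 and 539 ELD at the T. urartu and Ae. longissima level and 984 in no class. The 6 arrays alone gave 1635 genes.

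The split of directions moved as well. Of called genes, 60.1% were higher in S8, but 46.8% after median centring (with under-TRE at 468), 57.8% with the 75th percentile filter, 56.0% after quantile normalization, 52.7% against the linear mid-parent and 67.6% against the log2 mid-parent, which called 7419 genes. Against the log2 mid-parent, wcH2B-8 Ta.7378.35.S1_x_at turned to 1.92 and Ta.20390.1.S1_x_at to 0.11. Over 414 settings of single genes, 360 kept direction and call, 52 lost the call and 2 reversed. The cause was not tested.

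Leaving out single arrays gave 3107 to 4812 genes between S8 and Mix, 57.8% to 62.1% higher, 650 to 1213 over-TRE, 176 to 345 under-TRE, 652 to 1144 ELD at the T. urartu level, 611 to 879 at the Ae. longissima level and 846 to 1790 in no class. It gave 1035 to 1507 genes against S5, 81 to 266 against S6, 313 to 972 against S7, 2179 to 3616 for Mix against the mid-parent, and 4962 to 5953 between tissues. S8 replicate 1 (192 under-TRE without it, 989 in no class, 1035 against S5, 313 against S7), S8 replicate 2 (650 over-TRE, 176 under-TRE, 956 in no class), S8 replicate 3 (266 against S6) and Mix replicate 1 (652 ELD at the T. urartu level, 846 in no class) moved counts by over 1.5 times. So did S5 replicates 1 and 3 (1147 and 1071 against S5) and S7 replicates 1, 2 and 3 (362, 329 and 341 against S7).

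The counts of parent-specific genes under the S8 median, chosen after seeing the data, went from 158 to 84 and from 10 to 3 with the expressing parent above the 75th percentile, to 96 and 3 with the 40th percentile as the limit, and to 158 to 162 and 10 to 14 without single arrays. Stricter limits also reduce the sets of 536 and 324 genes, so these counts do not show how the shares moved. With the replicate number as a block the count was 4567, and no count moved by over 1.5 times. Deviations of same-numbered S8 and Mix arrays correlated at -0.01, 0.07 and -0.03, so no shared deviation was seen. With 3 arrays per group, after normalization, this could not exclude a shared batch. Arrays hold no depth, and values under the array median are near background.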
